A study of Mus musculus with 6 samples.

Results

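The 35 genes described here encode the carriers that move organic anions, organic cations, urate and drugs across the proximal tubule of the kidney. They were listed by gene name, as members of the Slc22, Slco, Slc47, Slc17 and ABC families with Slc2a9, Slc10a2 and Slc16a9, with earlier results on these libraries known. All 35 were found among the 52405 genes of the deposited table, and 31 of them had a mean of at least 1 FPKM (fragments scaled to transcript length and to the mapped total of the library) over the 6 libraries, the level required for testing.

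RNA was sequenced from tubule cells of the kidney cortex in 3 KO and 3 Ctr libraries. The KO mice lacked the receptor for insulin-like growth factor 1 (IGF-1R, gene Igf1r) in the proximal tubule, and the Ctr mice were controls; the labels name neither the Cre driver nor the allele. All were uninjured adult C57BL/6 females whose ovaries had been removed on postnatal day 21, so both groups lacked ovaries. Cells were pulled from dissociated cortex with magnetic beads against prominin-1 before RNA extraction. The comparison asks how gene expression in the tubule differs without the receptor. Libraries within a group are biological replicates by their labels, which do not say whether animals were pooled.

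The proximal tubule clears the blood of metabolites, toxins and drugs by transcellular secretion. Carriers of the basolateral membrane take up organic anions in exchange for dicarboxylates, and organic cations down the membrane potential. Pumps and exchangers of the brush border then release them into the urine, while urate, carnitine and bile acids are partly taken back by other carriers of the same families. In rodents several of these genes are expressed at different levels in males and females.

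Igf1r was at 4.78, 7.67 and 5.08 FPKM in KO, against 18.7, 15.3 and 22.7 FPKM in Ctr, and the groups did not overlap; here and below, 3 values of a group are those of its replicates 1, 2 and 3 in that order. The log2 change of Igf1r came to -1.55 (SE 0.19) with a limma adjusted p of 0.267 over all genes tested. An exact permutation test (two-sided) of Igf1r alone reached p = 0.1, as low as 3 against 3 libraries allow. The libraries held 20920 to 21751 genes above 0. FPKM carries no read counts, but the steps between low values gave the relative depth, and the deepest library had 1.3 times the depth of the shallowest. Markers of the proximal tubule were abundant, with summed levels of 4742 to 5286 FPKM over 10 genes in KO and 4983 to 6387 FPKM in Ctr. All 9 markers of the thick limb, distal tubule and collecting duct were present as well, at 2463 to 3903 FPKM in KO and 2117 to 2906 FPKM in Ctr, so the libraries were not pure proximal tubule. The libraries numbered 1 stood apart in glomerular RNA. The 5 podocyte markers summed to 206 FPKM in KO replicate 1 and 275 FPKM in Ctr replicate 1, against 6.91 to 12.6 FPKM in the other 4 libraries. Fewer cells of a type and less RNA per cell cannot be told apart in such bulk samples.

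The 7 members on chromosome 19 include 2 pairs of related genes whose sequences help in reading their values. Slc22a6 (GRCm38 chromosome 19, 8618039 to 8628299, plus strand) and Slc22a8 (8591254 to 8611835, plus strand) encode the main basolateral uptake carriers for organic anions, OAT1 and OAT3, and lie 6.2 kb apart with no protein-coding gene between them. Their promoter windows from RefSeq (GRCm38.p6, 250 bases before to 50 after the annotated start) are shown because each holds the letters GTTAAT, a half-site of the tubule transcription factors HNF1, here in capitals. They run over chr19:8617746-8618045 and chr19:8592932-8593231, both on the plus strand.
Slc22a6: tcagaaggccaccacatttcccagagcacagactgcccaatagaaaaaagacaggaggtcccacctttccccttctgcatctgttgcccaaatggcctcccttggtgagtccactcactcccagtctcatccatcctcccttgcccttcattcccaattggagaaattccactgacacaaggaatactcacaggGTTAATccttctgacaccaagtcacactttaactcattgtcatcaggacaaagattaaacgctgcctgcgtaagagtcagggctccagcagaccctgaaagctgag
Slc22a8: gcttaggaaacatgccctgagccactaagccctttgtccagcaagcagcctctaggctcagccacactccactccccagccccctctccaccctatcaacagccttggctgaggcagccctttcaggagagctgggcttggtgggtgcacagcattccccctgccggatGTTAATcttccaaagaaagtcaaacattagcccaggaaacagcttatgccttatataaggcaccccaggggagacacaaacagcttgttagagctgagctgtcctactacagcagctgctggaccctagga
The half-site began 56 bases before the RefSeq start used for the window of Slc22a6 and 81 bases before that of Slc22a8. The whole window of Slc22a8 lies inside the gene span given above, which begins at 8591254, so its start is not the outermost one. Read on both strands, it was present in 3 of the 29 members with a window (10.3%, Slc10a2 being the third) and in 8.24% of all 27025 genes with one. Such a match describes the letters of the window and not binding. Also on both strands, the HNF4 half-site AAAGTCCA was found in Slc22a22 and Abcc4 (6.90% of members, 1.46% of all genes), and the TATA box letters TATAAA in 5 members (17.2%, against 15.7% of all genes). A gene with several windows was counted if any of them held the letters. The HNF4 half-site lay in windows of starts inside Slc22a22 and Abcc4 (chr15:57265112-57265411 and chr14:118676882-118677181). The windows at the outermost starts of these genes did not hold it.

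Slc22a28 (chromosome 19, 8062209 to 8131982) and Slc22a30 (8335371 to 8405111), both on the minus strand, are copies found in rodents. Of the 50-base stretches of their longest coding transcripts, 53.9% in Slc22a28 and 36.1% in Slc22a30 also occurred in another gene, mostly in each other (53.3% and 32%). Their promoters are shown to give the scale of this likeness, with capitals where the aligned windows chr19:8131933-8132232 and chr19:8405056-8405355 differ or one runs past the other.
Slc22a28: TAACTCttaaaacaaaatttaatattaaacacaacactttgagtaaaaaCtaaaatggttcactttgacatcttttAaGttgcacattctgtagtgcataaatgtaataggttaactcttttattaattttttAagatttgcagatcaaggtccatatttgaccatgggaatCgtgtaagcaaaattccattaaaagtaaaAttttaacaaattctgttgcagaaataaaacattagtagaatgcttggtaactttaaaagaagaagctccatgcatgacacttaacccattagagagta
Slc22a30: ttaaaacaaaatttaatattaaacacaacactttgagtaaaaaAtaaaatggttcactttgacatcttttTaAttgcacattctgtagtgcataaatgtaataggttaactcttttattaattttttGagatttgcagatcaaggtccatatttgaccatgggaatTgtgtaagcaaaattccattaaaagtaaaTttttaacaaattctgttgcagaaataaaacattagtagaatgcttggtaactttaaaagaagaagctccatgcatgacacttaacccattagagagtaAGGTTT
Over 294 aligned bases 288 were identical (98%), and 6 differed. The division of reads between these 2 genes is therefore an estimate of the authors' quantification, and their sum is given beside each value below. Among the other members Slc22a13 shared most, with 36.0% of its 50-base stretches in a pseudogene, Slc22a13b-ps. Its values may therefore rest on such a division of reads as well. Slc22a5 shared 26.9% with Slc22a21, whose level lay 68.9-fold below that of Slc22a5 in KO and 75.5-fold below it in Ctr. Abcb1a and Abcb1b, the rodent pair of P-glycoprotein genes, shared 15.5% and 18.0% with each other. For 20 members no such stretch occurred in any other gene.

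The levels of the 35 genes spanned more than 4 orders of magnitude. Mean levels over the 6 libraries were at least 100 FPKM for 8 members, 10 to 100 FPKM for 13 and 1 to 10 FPKM for 10, and the remaining 4 lay below 1 FPKM. The 5 most abundant were Slc22a12 (448 FPKM), Slc22a8 (300.8 FPKM), Slc22a18 (241 FPKM), Abcg2 (179 FPKM) and Slc47a1 (164 FPKM). Together they made up 58.8% of the members' summed mean level. Slc17a1, Slc22a6 and Slc22a5 followed at 145, 137 and 121 FPKM, and their ranges over the libraries overlapped one another and that of Slc47a1. Slc22a12 alone stood clear of every other member, since its lowest library (375 FPKM) lay above the highest library of Slc22a8 (331 FPKM). Summed over all 35 genes, the members came to 2086, 2030 and 2255 FPKM in KO and to 2217, 2467 and 2545 FPKM in Ctr. The groups overlapped, because KO replicate 3 lay above Ctr replicate 1.

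**Figure D1:**
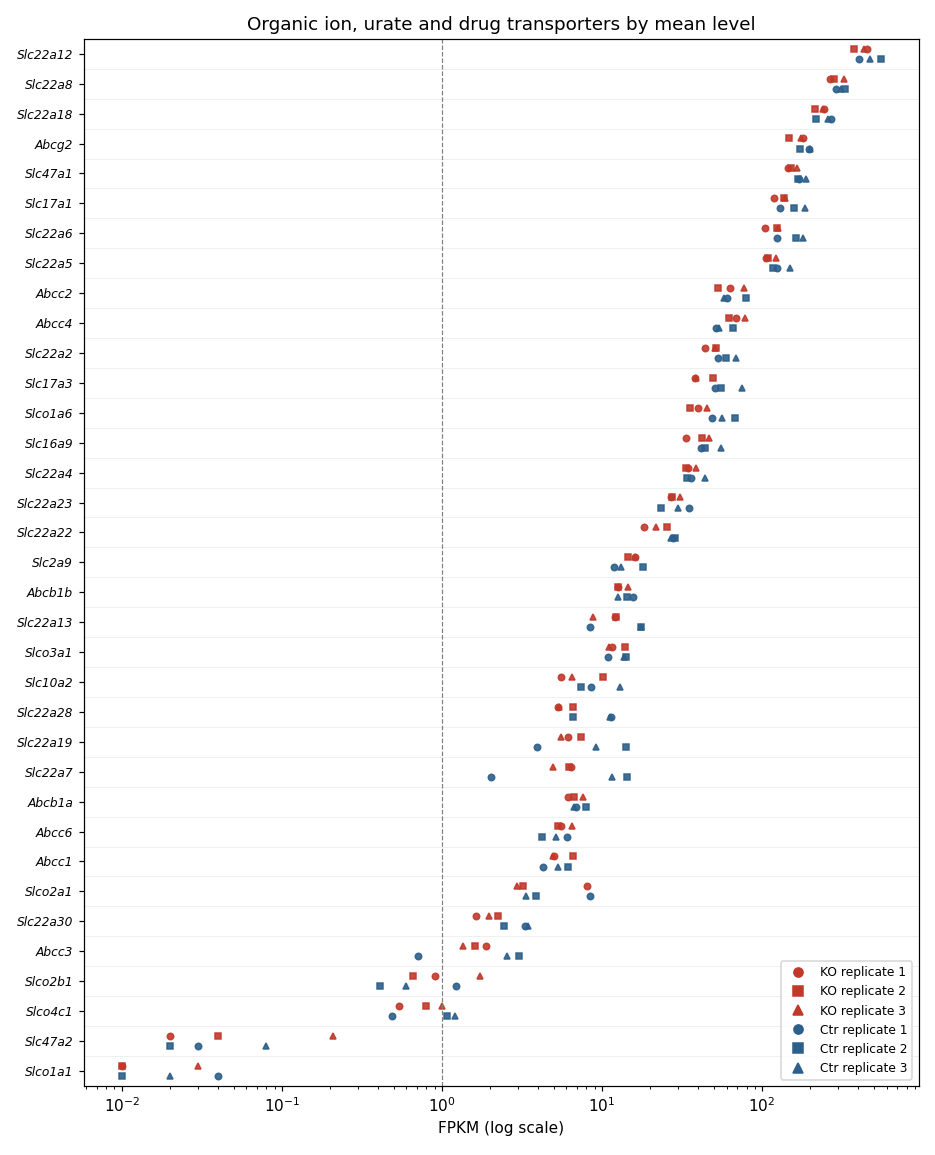
FPKM of the 35 transporters in each library on a log axis, ordered by mean level, with KO libraries drawn above Ctr libraries and the marker showing the replicate number. Slc22a12 leads, 31 members average at least 1 FPKM (dashed line), and Slco1a1 and Slc47a2 lie far below all others.

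No member passed the test between KO and Ctr, and most had somewhat lower estimates in KO. With limma on log2(FPKM + 1) and Benjamini-Hochberg adjustment over all 12770 genes tested, 0 of 31 members passed the threshold of 0.05 in either direction, while 0.0235% of all genes did; the adjusted p was 1.0 for each member. At an unadjusted p under 0.05 there were 7 members lower in KO, against 1.69% of all genes, and 0 members higher in KO, against 1.82% of all genes. With the replicate number as a block in the fit the 7 became 12 members lower in KO, against 2.76% of all genes, and 0 passed the adjusted threshold. That count was 3 members without KO replicate 1 (1.74% of all genes) or without Ctr replicate 3 (0.999%), and 11 without Ctr replicate 1 (2.02%). The count higher in KO was 1 without KO replicate 2 (1.32% of all genes) and 2 without Ctr replicate 2 (2.34%). The estimate was lower in KO for 27 of 31 members, against 56.4% of all genes tested. The median log2 change of the members was -0.18 and that of all genes -0.02. All 3 KO values lay below all 3 Ctr values for 6 members (4.7% of all genes did so), and above them for 0 members (3.89% of all genes). The members were not chosen independently of earlier results on these libraries, so these counts describe the list. Of the 10 proximal tubule markers, none of them a member, 9 had lower estimates in KO as well (median log2 change -0.09), while 7 of the 9 markers of later segments had higher ones (median 0.02). The part of cell composition in the members' estimates was not tested. The changes ranged from -0.64 to 0.28, and the 95% interval of a member's change had a median half-width of 0.33 before any adjustment. Smaller differences were mostly not detectable with 3 libraries a group. Larger ones could fail the adjusted threshold as well, as the change of -1.55 for Igf1r did (limma adjusted p 0.267).

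**Figure D2:**
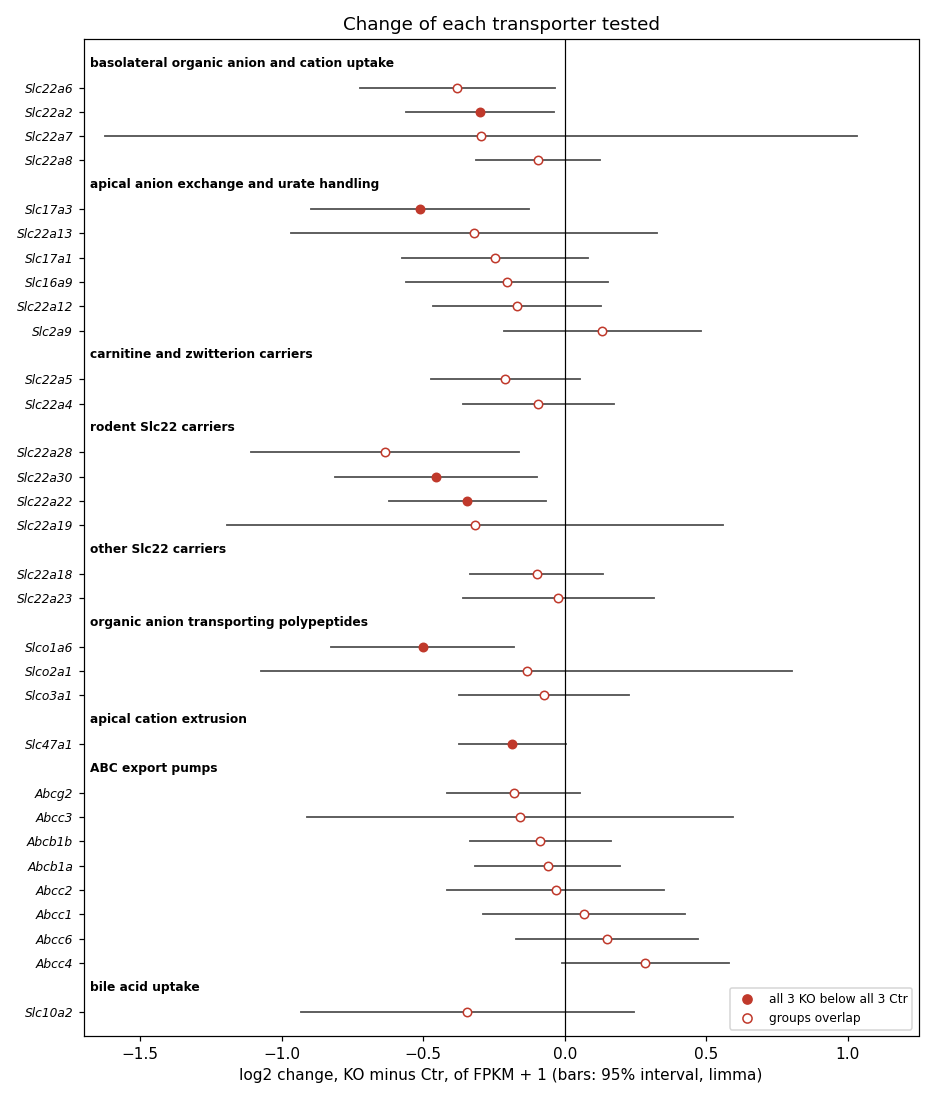
The log2 change (KO minus Ctr, of FPKM + 1) of the 31 transporters tested, grouped by role, with 95% intervals from limma as bars and filled points where all 3 KO values lay below all 3 Ctr values. Points lie left of 0 for 27 genes and filled points mark 6; only intervals of 7 genes exclude 0, before any adjustment.

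The number of members with KO below Ctr was also counted between libraries of the same replicate number. It was 21 of 31 for the libraries numbered 1 (median log2 difference -0.14, against 54.7% of all genes below), 26 for those numbered 2 (-0.17, against 47.7%) and 23 for those numbered 3 (-0.25, against 56.2%). In all 3 pairs KO lay below Ctr for 14 members (15.3% of all genes) and above Ctr for 0 members (11.6% of all genes). The median deviation of the members from each gene's mean was -0.11, -0.07 and -0.03 in KO, against -0.02, 0.14 and 0.20 in Ctr. Ctr replicates 2 and 3 were thus the high libraries, and Ctr replicate 1 lay close to KO replicate 3. Without Ctr replicate 3 the median change of the members was -0.12, and without both libraries numbered 1 it was -0.19. In the 4 libraries that remain without those numbered 1, 10 members were lower in KO at an unadjusted p under 0.05 (1.97% of all genes) and 0 higher. With fewer libraries the groups of any gene overlap less often. All KO values then lay below all Ctr values for 15 members (15.8% of all genes), and for 13 members without Ctr replicate 1 alone (9.75%) and 10 without Ctr replicate 2 alone (12.8%).

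Among the carriers grouped here under basolateral uptake all 4 tested had lower estimates in KO, against 56.4% of all genes tested. The grouping was by assigned role, and the membrane of each carrier was not examined. The estimate of Slc22a7 was uncertain, at -0.30 (SE 0.56), and reached 0.14 with 1 library left out. Slc22a6 (OAT1), which takes up organic anions in exchange for 2-oxoglutarate, was at 105, 123 and 125 FPKM in KO, against 124, 162 and 180 FPKM in Ctr. KO replicate 3 lay just above Ctr replicate 1, so the groups overlapped, while the other 2 Ctr libraries stood well above all KO libraries. The means were 118 ± 11.3 FPKM in KO and 155 ± 28.6 FPKM in Ctr (SD, n = 3 each), with a log2 change of -0.38 (SE 0.15). Its neighbour Slc22a8 (OAT3), with broad anion substrates, was at 267, 282 and 324 FPKM in KO and 290, 331 and 310 FPKM in Ctr. These groups overlapped widely, and the log2 change was -0.10 (SE 0.09, 95% interval -0.32 to 0.12).

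Slc22a2 (OCT2, chromosome 17, 12584132 to 12628488), the basolateral carrier for organic cations such as creatinine and metformin, was at 44.0, 51.5 and 50.6 FPKM in KO and at 53.3, 59.2 and 68.6 FPKM in Ctr. All KO values lay below all Ctr values, by a narrow gap between KO replicate 2 and Ctr replicate 1. The means were 48.7 ± 4.09 FPKM in KO and 60.3 ± 7.69 FPKM in Ctr (SD, n = 3 each), 19.3% lower in KO, and the log2 estimate was -0.30 (SE 0.11). Slc22a7 (OAT2) is described below with the members that varied most between libraries. Slco4c1, a basolateral carrier of cardiac glycosides and thyroid hormone, was low at 0.54, 0.79 and 1.0 FPKM in KO and 0.49, 1.08 and 1.21 FPKM in Ctr and was not tested.

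The brush border exporter for cations had a lower level in every KO library than in any Ctr library, as did 4.7% of all genes tested. Slc47a1 (MATE1, chromosome 11, 61343401 to 61378345), the proton-coupled exchanger that passes cations taken up by OCT2 into the urine, was at 145, 152 and 164 FPKM in KO, against 170, 167 and 188 FPKM in Ctr. The highest KO library lay only just below the lowest Ctr library, and the means were 154 ± 10.1 FPKM in KO and 175 ± 11.4 FPKM in Ctr (SD, n = 3 each), 12.2% lower in KO (log2 change -0.19, SE 0.08). Slc47a2 (MATE2), whose gene lies 540 bases from Slc47a1, was almost absent. It was at 0.02, 0.04 and 0.21 FPKM in KO and 0.03, 0.02 and 0.08 FPKM in Ctr, too low to compare.

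Urate carriers included the most abundant member of all. Slc22a12 (URAT1, chromosome 19, 6535845 to 6543032), which takes urate back from the tubule fluid in exchange for organic anions, was at 452, 375 and 434 FPKM in KO and 405, 550 and 471 FPKM in Ctr. The groups overlapped, with the lowest library in KO and the highest in Ctr, and the log2 change was -0.17 (SE 0.13, 95% interval -0.47 to 0.13). Slc2a9 (GLUT9), the carrier through which urate leaves the cell, was one of the 4 members with a higher estimate in KO. It was at 16.1, 14.5 and 16.2 FPKM in KO and at 11.9, 18.0 and 13.2 FPKM in Ctr (log2 change 0.13, SE 0.15), and the KO values lay within the Ctr range.

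Slc17a3 and Slc17a1 (NPT4 and NPT1 in humans), apical anion carriers that release urate, are neighbours on chromosome 13, 7.0 kb apart. Slc17a3 (23839434 to 23860716) was at 37.9, 49.2 and 38.6 FPKM in KO, against 51.2, 55.6 and 74.9 FPKM in Ctr. The groups did not overlap, and the gap was small between KO replicate 2 and Ctr replicate 1. Means were 41.9 ± 6.32 FPKM in KO and 60.6 ± 12.6 FPKM in Ctr (SD, n = 3 each), 30.8% lower in KO (log2 change -0.51, SE 0.16). Without Ctr replicate 3 that change was -0.35. Slc17a1 was at 119, 137 and 140 FPKM in KO and 129, 158 and 186 FPKM in Ctr (log2 change -0.25, SE 0.14, or -0.12 without Ctr replicate 3); the groups overlapped through the low Ctr replicate 1. Slc16a9 (MCT9), a carnitine carrier whose human gene lies at a locus associated with urate, was at 33.4 to 46.3 FPKM in KO and 41.3 to 55.2 FPKM in Ctr (log2 change -0.20, SE 0.15). Slc22a13 (OAT10), an apical carrier of nicotinate and urate, was at 12.02, 12.16 and 8.76 FPKM in KO and 8.44, 17.5 and 17.7 FPKM in Ctr (log2 change -0.32, SE 0.27).

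The carnitine carrier Slc22a5 (OCTN2) recovers filtered carnitine, and the related Slc22a4 (OCTN1) carries ergothioneine; both lie on chromosome 11, 91.5 kb apart. Slc22a5 was at 105, 109 and 122 FPKM in KO and 124, 116 and 150 FPKM in Ctr, overlapping through KO replicate 3 (log2 change -0.21, SE 0.11). Slc22a4 was at 33.4 to 38.5 FPKM in KO and 34.1 to 44.3 FPKM in Ctr (log2 change -0.09, SE 0.11).

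Of the 4 members grouped here under rodent branches of the Slc22 family, 3 were lower in KO at a limma unadjusted p under 0.05, against 1.69% of all genes tested. Slc22a28 and Slc22a30 are among these 3 and share much of their sequence, so they are not separate findings. The rodent copy Slc22a29 is not a member and was not counted here. Its estimate was higher in KO (log2 change 0.20, SE 0.14). Slc22a22 (chromosome 15, 57243767 to 57477625) encodes OAT-PG, a kidney carrier for prostaglandins. It was at 18.3, 25.4 and 21.9 FPKM in KO, against 27.8, 28.4 and 27.2 FPKM in Ctr. The Ctr libraries were tightly grouped and all above KO, with means of 21.9 ± 3.57 FPKM in KO and 27.8 ± 0.625 FPKM in Ctr (SD, n = 3 each), 21.4% lower in KO (log2 change -0.34, SE 0.12). Slc22a28 had the largest negative log2 change among the members tested. It was at 5.32, 6.61 and 5.37 FPKM in KO and 11.4, 6.60 and 11.2 FPKM in Ctr, so that Ctr replicate 2 sat within the KO range while the other 2 Ctr libraries stood well above it. The means were 5.77 ± 0.731 FPKM in KO and 9.74 ± 2.72 FPKM in Ctr (SD, n = 3 each), 40.8% lower in KO (log2 change -0.64, SE 0.20).

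Slc22a30 likewise had its highest KO and lowest Ctr value in replicate 2, with 1.63, 2.25 and 1.98 FPKM in KO and 3.28, 2.45 and 3.44 FPKM in Ctr, and here the groups did not overlap (log2 change -0.45, SE 0.15). Because these 2 copies share much of their sequence, their values need not vary independently. Their sum was 6.95, 8.86 and 7.35 FPKM in KO and 14.7, 9.05 and 14.6 FPKM in Ctr, a KO mean 0.603 times the Ctr mean. The summed values did not overlap either, by a margin of 8.86 FPKM in KO replicate 2 to 9.05 FPKM in Ctr replicate 2.

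**Figure D3:**
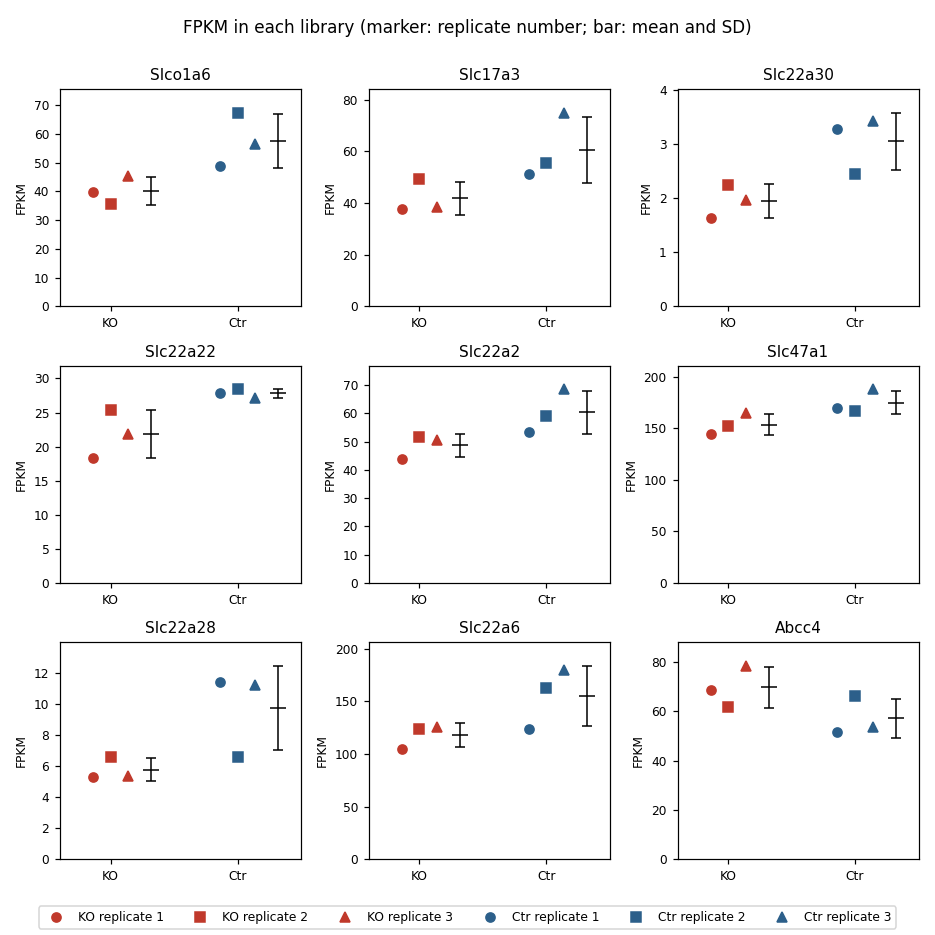
FPKM of 9 transporters in each library, KO left of Ctr, with the marker showing the replicate number and the bar the mean and SD of 3 libraries. In the upper 6 panels all KO points lie below all Ctr points; Slc22a28 and Slc22a6 overlap through 1 Ctr library each, and Abcc4 has its 2 highest points in KO.

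Of the organic anion transporting polypeptides, Slco1a6 (chromosome 6, 142085761 to 142208521), a kidney carrier of organic anions in mice, had the smallest p of all members. It was at 39.7, 35.4 and 45.3 FPKM in KO, against 48.9, 67.3 and 56.3 FPKM in Ctr. No KO value reached the Ctr range, and the means were 40.1 ± 4.93 FPKM in KO and 57.5 ± 9.27 FPKM in Ctr (SD, n = 3 each), 30.2% lower in KO. On the log2 scale the estimate was -0.50 (SE 0.14, 95% interval -0.83 to -0.18), or -0.39 without Ctr replicate 2. Slco1a1, a relative 138.8 kb away, is an androgen-dependent carrier that is abundant in the kidneys of male mice. In these ovariectomized females it was nearly silent, at 0.01, 0.01 and 0.03 FPKM in KO and 0.04, 0.01 and 0.02 FPKM in Ctr. No difference could be read so close to the smallest value the table holds. Slco3a1 was at 11.05 to 14.02 FPKM in KO and 10.96 to 14.03 FPKM in Ctr (log2 change -0.07, SE 0.13). Slco2b1 averaged 1.10 ± 0.560 FPKM in KO and 0.743 ± 0.424 FPKM in Ctr (SD, n = 3 each) and was below the level for testing.

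The ABC pumps, which use ATP to export drugs and conjugates, were split in direction, with 5 of 8 estimates lower and 3 higher in KO and a median log2 change of -0.05. Abcc4 (MRP4, chromosome 14, 118482692 to 118706219), an apical pump for organic anions, cyclic nucleotides and urate, had the highest log2 change among the members tested. It was at 68.8, 61.9 and 78.6 FPKM in KO and 51.5, 66.2 and 53.9 FPKM in Ctr. The groups overlapped because Ctr replicate 2 exceeded KO replicate 2, and the means were 69.8 ± 8.40 FPKM in KO and 57.2 ± 7.88 FPKM in Ctr (SD, n = 3 each), with a log2 change of 0.28 (SE 0.13). Abcc2 (MRP2), its apical relative for glutathione and glucuronide conjugates, was at 63.0, 53.3 and 77.0 FPKM in KO and 60.4, 78.9 and 58.2 FPKM in Ctr. It showed no common direction (log2 change -0.03, SE 0.16, 95% interval -0.42 to 0.35).

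Abcg2 (BCRP), an apical pump for urate and drugs and the fourth most abundant member, was at 179, 148 and 176 FPKM in KO and 197, 172 and 200 FPKM in Ctr. Only Ctr replicate 2 lay within the KO range (log2 change -0.18, SE 0.10). The P-glycoprotein genes Abcb1a and Abcb1b had a summed level of 18.8, 19.3 and 22.2 FPKM in KO and 22.5, 22.2 and 19.3 FPKM in Ctr. Their KO mean was 0.942 times the Ctr mean, with overlapping libraries, and the log2 change was -0.06 (SE 0.11) for Abcb1a and -0.09 (SE 0.11) for Abcb1b. The basolateral pumps were expressed at lower levels. Abcc6 was at 5.53, 5.33 and 6.45 FPKM in KO and 6.01, 4.2 and 5.19 FPKM in Ctr (log2 change 0.15, SE 0.14, or 0.04 without Ctr replicate 2), and Abcc1 at 4.94 to 6.55 FPKM in KO and 4.26 to 6.11 FPKM in Ctr (0.07, SE 0.15). Abcc4, Abcc6, Abcc1 and Slc2a9 were thus the tested members with higher estimates in KO, and the 95% interval of each included 0.

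Slc22a18, a carrier gene within an imprinted domain of chromosome 7, was at 242, 213 and 240 FPKM in KO and 270, 218 and 259 FPKM in Ctr (log2 change -0.10, SE 0.10). Slc22a23, an orphan carrier, was at 27.1 to 30.8 FPKM in KO and 23.3 to 34.8 FPKM in Ctr (log2 change -0.02, SE 0.14), the smallest change of any member tested. Slc10a2 (ASBT), which takes up bile acids with sodium, was at 5.55, 10.1 and 6.52 FPKM in KO and 8.52, 7.39 and 13.0 FPKM in Ctr (log2 change -0.34, SE 0.25). Its estimate was -0.13 without Ctr replicate 3, -0.18 without KO replicate 1 and -0.56 without KO replicate 2.

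**Figure D4:**
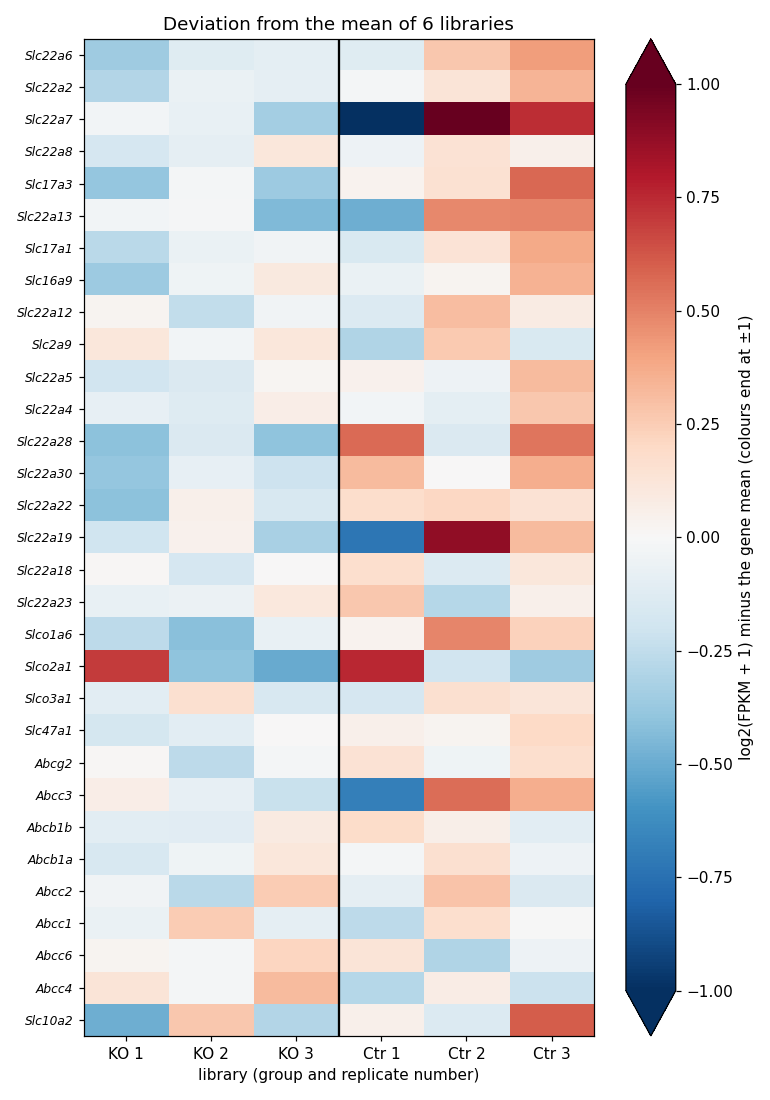
Deviation of log2(FPKM + 1) from each gene's mean over the 6 libraries for the 31 transporters tested, KO libraries left of Ctr libraries, with blue below and red above the mean. Most rows are pale blue in KO and pale red in Ctr replicates 2 and 3, while Ctr replicate 1 is mixed and holds the deepest blue cells.

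A few members, chosen here for their spread after their values were seen, varied far more within a group than between the groups. Over the 6 libraries the highest value was more than 2 times the lowest for 8 of the 31 members tested, and less than 1.5 times for 12. The widest was Slc22a7 (OAT2, chromosome 17, 46432183 to 46438457), which carries cyclic nucleotides and other anions. It was at 6.41, 6.18 and 4.96 FPKM in KO and 2.03, 14.4 and 11.6 FPKM in Ctr, so that the 3 KO values lay between a very low Ctr replicate 1 and 2 high Ctr libraries. The estimate for Slc22a7 was -0.30 (SE 0.56) with all libraries and -1.03 (SE 0.15) without Ctr replicate 1. Its limma adjusted p was 0.255 without that library and ran from 0.255 to 1.0 over the alternatives.

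Slc22a19 (OAT5 in rodents), an apical anion carrier, had the same order of Ctr libraries, with 6.11, 7.44 and 5.53 FPKM in KO and 3.94, 14.1 and 9.15 FPKM in Ctr. Abcc3 (MRP3), a basolateral pump for glucuronides, likewise had 1.88, 1.60 and 1.35 FPKM in KO and 0.71, 3.04 and 2.54 FPKM in Ctr. Both KO groups were narrow and lay within the Ctr range (log2 change -0.32, SE 0.37 for Slc22a19 and -0.16, SE 0.32 for Abcc3). Markers of segment S3, the late proximal tubule, differed between the same libraries. Its 7 tested markers were Slc5a1, Slc6a18, Slc3a1, Cyp7b1, Atp11a, Acy3 and Slc27a2, and Slc7a13 was below the level for testing. The median deviation of the 7 was -0.28, 0.01 and -0.05 in KO and -0.10, 0.25 and 0.24 in Ctr. All 7 had lower estimates in KO, from -0.46 for Acy3 to -0.05 for Slc27a2 (median log2 change -0.15). Their part in the transporters' values was not tested. Of the 6 markers of segments S1 and S2, which include Slc22a6, 5 had lower estimates in KO (median -0.08). The median deviation of these 6 was 0.09, -0.38 and 0.14 in KO and 0.28, -0.55 and 0.25 in Ctr. It was thus lowest in the libraries numbered 2 of both groups, a different order from that of the S3 markers.

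Slco2a1, the prostaglandin transporter that is prominent in endothelium, was high in the libraries numbered 1. It was at 8.06, 3.21 and 2.93 FPKM in KO and 8.37, 3.88 and 3.34 FPKM in Ctr (log2 change -0.13, SE 0.40). The 7 endothelial markers summed to 139, 18.2 and 14.01 FPKM in KO and 170, 21.8 and 16.2 FPKM in Ctr, and each of the 7 was highest in the libraries numbered 1. Each of the 5 podocyte markers was likewise highest there, and none of either list was at 0 in any library. Their part in the level of Slco2a1 was not tested.

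**Figure D5:**
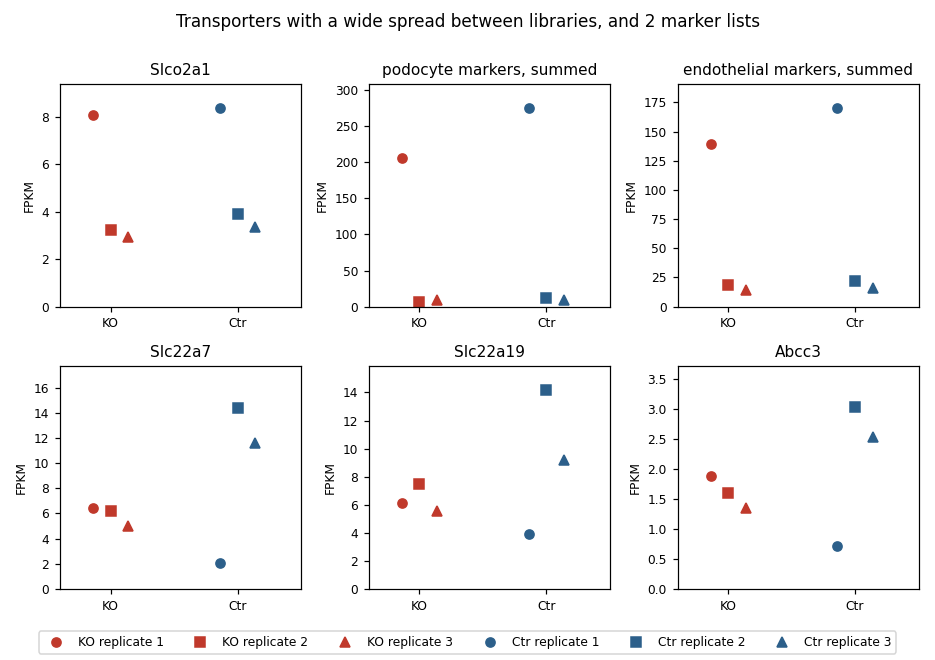
FPKM in each library, KO left of Ctr, for Slco2a1, the sums of 5 podocyte and 7 endothelial markers, and the carriers Slc22a7, Slc22a19 and Abcc3. Replicate 1 is far above the rest of both groups in the upper panels; in the lower panels the 3 KO points lie between Ctr replicate 1 and the other 2 Ctr libraries.

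A further 48 carrier genes of the same families, not among the 35, were mostly too low to test. Of the 21 tested, 14 had lower estimates in KO and 7 higher, with a median log2 change of -0.05, and 0 passed the threshold or had an unadjusted p under 0.05. They were not tested against the 35 genes. The 3 with the smallest p were Slc22a29, a rodent Slc22 copy (0.20, SE 0.14), Slc10a7 (0.14, SE 0.10) and Slc10a5 (-0.18, SE 0.14). Slc22a29 was at 26.8, 33.0 and 32.5 FPKM in KO and 32.1, 23.4 and 25.1 FPKM in Ctr, on the opposite side to its relatives Slc22a28 and Slc22a30. Slc22a27, a copy of the same kind that was below the level for testing and singled out after its values were seen, was at 0.61, 0.79 and 0.67 FPKM in KO and 0.21, 0.29 and 0.20 FPKM in Ctr, with no overlap.

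Genes that support organic ion transport gave 13 lower and 5 higher estimates in KO among 18 tested (median log2 change -0.09), and 0 passed the threshold. The sodium-coupled dicarboxylate carrier Slc13a2, which recovers citrate and 2-oxoglutarate from the tubule fluid, was at 31.0, 29.3 and 37.2 FPKM in KO, against 40.6, 40.0 and 42.0 FPKM in Ctr. All its KO values lay below Ctr (log2 change -0.33, SE 0.10), as for 4.7% of all genes tested. It was the only 1 of the 18 with a limma unadjusted p under 0.05. Of all genes tested, 1.69% were lower and 1.82% higher in KO at that level. Slc5a8, a monocarboxylate carrier, and Slc13a3, the basolateral dicarboxylate carrier that feeds OAT1 and OAT3, followed at -0.21 (SE 0.13) and -0.15 (SE 0.10) with overlapping groups. The scaffold Pdzk1, which binds apical transporters, was at -0.03 (SE 0.12). Of the 10 transcription factors of the tubule that were tested, 6 had lower and 4 higher estimates (median -0.08), and 0 passed. The immediate early genes of dissociation were even, with 5 lower and 5 higher, and 4 of the 5 injury markers tested had higher estimates (median 0.04).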

How the data were processed

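The authors deposited 1 table of FPKM values with 2 decimals for 52405 Ensembl genes in 6 libraries, made from total RNA with a strand-preserving kit per the labels' protocols. The submitters' processing notes name RSEM, DESeq2 1.28.1 and STAR 2.6.0c without roles. What genome build, annotation and strand settings were used is not given in the sources used here. FPKM is relative to each library's total, and reads of near-identical copies were divided by an estimate.

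Values were analysed as log2(FPKM + 1), which understates changes of low genes. Genes with a mean of at least 1 FPKM entered a limma fit (version 3.58.1, R 4.3.3, intensity trend, two-sided, Benjamini-Hochberg adjustment over all genes tested, threshold 0.05). The procedure was tested on simulated data. Members and lists were chosen with earlier results of these data known. Every member is named; values of all libraries are given for the 12 most abundant, those whose groups do not overlap, the 6 with the smallest p and the 3 with the highest change. Those of Slc22a7, Slc22a13, Slc22a19, Slco2a1, Abcc3, Slc10a2, Slco4c1, Slc47a2 and Slco1a1 were added after their values were seen. The settings tried were another pseudocount, other filters and scalings, a replicate block, no trend, and libraries left out.

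Deviations from the group means correlated by 0.63, 0.29 and 0.37 across genes between KO and Ctr libraries of the same number, and all exceeded 0.1, so the numbers were taken as pairs from the data, not the labels. KO replicate 2 and Ctr replicate 3 also correlated by 0.30, and KO replicate 3 and Ctr replicate 2 by 0.15. Both exceeded 0.1 too, so the rule cannot tell how the libraries numbered 2 and 3 pair, and they may not be true pairs. The replicate block and the counts over libraries of the same number rest on this pairing. GENCODE M21 (GRCm38) gave the positions by gene identifier (52093 of 52405 found); promoter sequences are from RefSeq (GRCm38.p6).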

Additional observations from a re-analysis of the deposited data

How the results depend on the processing

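Over the 15 alternatives 0 members passed the threshold, 22 to 29 had a lower estimate in KO, and the median log2 change ran from -0.24 without Ctr replicate 1 to -0.12 without Ctr replicate 3. With the replicate block 27 estimates were lower, the median was -0.18, the adjusted p of Igf1r was 0.287 by limma, and the count at an unadjusted p under 0.05 was 12. That count ran from 3 to 11, and the count with all KO values below all Ctr values from 6 to 13, when 1 library was left out; without both libraries numbered 1 the second count was 15. Both counts under these settings were added after the data were seen. Of 462 member estimates under the alternatives, 443 kept their sign and 19 reversed, from 11 members; 20 members never reversed. All 19 came from leaving out libraries. With 1 library left out the log2 change ran from -0.17 to 0.016 for Slc22a4, -1.03 to 0.14 for Slc22a7, -0.76 to 0.047 for Slc22a19, -0.17 to 0.11 for Slc22a23, -0.52 to 0.21 for Slco2a1 and -0.048 to 0.17 for Abcc1. It ran from -0.17 to 0.10 for Abcc2, -0.54 to 0.080 for Abcc3 and -0.13 to 0.0055 for Abcb1a. Without both libraries numbered 1 it was 0.14 for Slc22a23, 0.012 for Abcb1b, -0.0087 for Slc2a9, -1.09 for Slc22a7 and -0.61 for Abcc3; with 1 library left out Abcb1b ran from -0.16 to -0.02 and Slc2a9 from 0.01 to 0.30. Of the members that never reversed, 12 moved by over 1.5 times when 1 library was left out. They ran from -0.29 to -0.10 for Slc22a5, -0.18 to -0.04 for Slc22a8, -0.28 to -0.06 for Slc22a12, -0.65 to -0.15 for Slc22a13, -0.19 to -0.04 for Slc22a18 and -0.45 to -0.23 for Slc22a22. They ran from -0.18 to -0.01 for Slco3a1, 0.04 to 0.25 for Abcc6, -0.25 to -0.10 for Abcg2, -0.30 to -0.07 for Slc16a9, -0.38 to -0.12 for Slc17a1 and -0.56 to -0.13 for Slc10a2. The cause of these reversals was not tested beyond the libraries left out. With a minimum of 5 FPKM no value was had for Slc22a30, Abcc3 and Slco2a1. FPKM without counts gives no counting error, and 3 libraries a group left intervals that reach at least 0.5 from 0 for 16 members.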
